A study of Papio hamadryas with 17 samples.

Results

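The mRNAs of the mitochondrial genome were followed in RNA sequencing of kidney cortex biopsies from 17 baboons (Papio hamadryas), 8 females and 9 males. The set was chosen by name and place: COX1, COX2, COX3, ATP6, CYTB, ND1, ND2, ND3, ND4 and ND5, where the transcript lies on the mitochondrial sequence. They are 10 of the 13 protein-coding genes and of the 20 features that the table of females gives for that sequence, beside 26644 transcripts in all. In males 7 of the 10 were held here, and ND1, ND4 and ND5 are therefore described in females alone. No transcript with these names lay elsewhere in the table.

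All animals had lived on a low salt chow, without other treatment, and were biopsied under ultrasound guidance with ketamine sedation and isoflurane anaesthesia. The females were aged 15 to 19 and the males 6 to 13 as the labels give it, with no unit, and no female was as young as any male. Each animal gave 1 library, made with a stranded mRNA kit. The females carry library names of 1 series, and the males carry names of a series A (5 libraries, male 1 to male 5) and a series B (4 libraries, male 6 to male 9), so sex cannot be told apart from age or name series.

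The mitochondrial genome is a small circular DNA that encodes core subunits of the respiratory chain and the RNAs needed to translate them. Its strands are read into long precursors, from which the tRNAs that lie between the mRNAs are cut out, so that the level of each mRNA depends on transcription, cleavage and stability together. In the kidney the proximal tubule and the thick ascending limb are rich in mitochondria, which supply ATP for sodium reabsorption. Complex I passes electrons from NADH into the chain, complex III passes them on to cytochrome c, complex IV reduces oxygen, and the ATP synthase makes ATP.

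The unit is the signal that the authors deposited for each transcript, less an offset of 1; how they scaled the libraries is not given in the sources used here. Summed over the 17119 transcripts present in both tables, it was 259197 to 670142 per female library and 264577 to 540174 per male library. The tables hold no read totals, but low values within a library fall on steps of 1 size, taken here as the worth of 1 read, which are 0.0531 to 0.0946 in 13 libraries and 0.237, 0.316, 0.318 and 0.294 in female 1, female 2, female 6 and male 6. In such steps the shared signal came to 919488 in female 6, 1840458 in male 6, 2123997 in female 2 and 2285582 in female 1, and to 3207916 to 6886486 in the other 13 libraries. All 10 proximal tubule markers and 4 of 5 thick ascending limb markers were held, as was 1 of 5 podocyte markers. Female 1, female 2 and male 6 stood apart as rich in skeletal muscle genes: ACTA1, the skeletal muscle actin, had signals of 51850, 81747 and 35238 there and at most 9.53 in the other 14 libraries. In these 3 libraries LRP2, the megalin receptor of the proximal tubule, was at 1.18, 0.947 and 7.04, and UMOD, the uromodulin of the thick ascending limb, was at 20.8, 12.3 and 938.6. The main results below are therefore given with and without them. In bulk tissue, fewer cells of a type and less RNA per cell cannot be told apart.

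The mitochondrial mRNAs were a large part of every library. The 7 mRNAs held in both sexes gave 17.4% to 48.8% of the shared signal in females, with a median of 36.3%, and 20.6% to 35.0% in males, with a median of 27.5%. Females averaged 33.8% ± 11.1 (SD, n = 8), males 27.6% ± 4.38 (SD, n = 9). The ranges overlapped, and the spread was wider in the females. The lowest female shares, 17.4% and 22.0%, came from the muscle-rich female 1 and female 2, and the highest, 48.8%, from female 5. Male 6, the muscle-rich male, had 26.7% and lay among the other males.

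**Figure D1:**
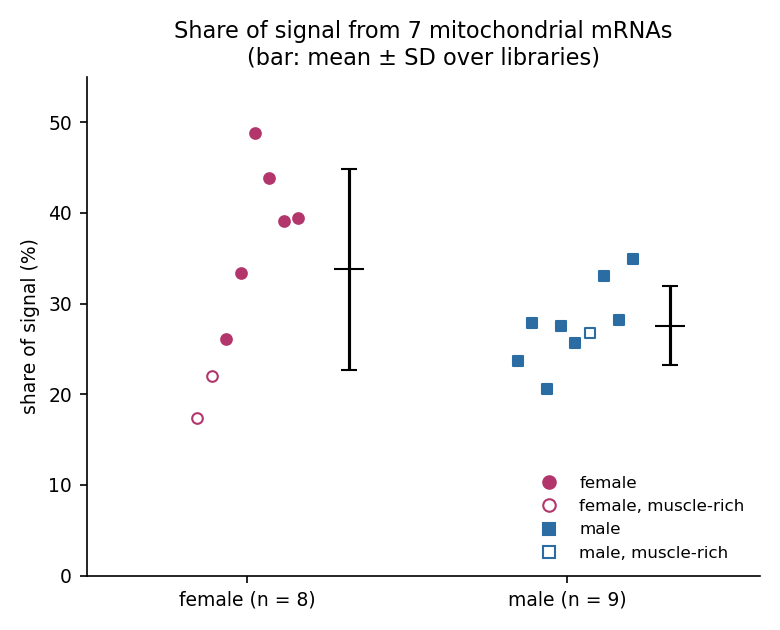
Share of the signal of the transcripts held in both tables that came from COX1, COX2, COX3, ATP6, CYTB, ND2 and ND3 (vertical axis, %), with 1 point per library and the mean ± SD beside each sex. Open symbols are the 3 muscle-rich libraries. Females range from 17.4% to 48.8% and males from 20.6% to 35.0%.

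Without the muscle-rich libraries females averaged 38.5% ± 7.95 (SD, n = 6), males 27.7% ± 4.67 (SD, n = 8). The female values then ran from 26.1% in female 3 to 48.8% in female 5, and 4 of them, in female 5, female 6, female 7 and female 8, lay above the highest male at 35.0%. Taken over the complete table of females, which holds more transcripts, the 7 mRNAs gave 8.44% to 31.8%, with a median of 24.0%, and all 10 gave 9.30% to 34.6%. The share depends on which transcripts form the denominator, and the female and male shares above use the same transcripts.

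The 3 mRNAs of complex IV, which encode its catalytic core, made up most of this signal. COX3 (positions 8627 to 9411 of the mitochondrial sequence, plus strand) had signals of 22425 to 54772 in females, with a median of 44944, and of 25225 to 48731 in males, with a median of 36911. It had the highest signal of all 9826 genes in 15 of 17 libraries and the second highest in the other two, female 1 and female 2, where ACTA1 was first. COX1 (5332 to 6901, plus strand) had signals of 12170 to 35020 in females, with a median of 25702, and of 12921 to 38816 in males, with a median of 21650. COX2 (7014 to 7698, plus strand) had 8551 to 22778 in females, with a median of 11689, and 7103 to 23160 in males, with a median of 14622. For each of the 3 genes the female and male ranges overlapped over nearly their whole length, and the muscle-rich libraries lay within the ranges of the others except male 6, which had the highest male COX1 and COX3.

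ATP6 (7947 to 8628, plus strand) encodes a subunit of the proton channel of the ATP synthase. Signals were 9305 to 24560 in females, with a median of 12425, and 5445 to 35372 in males, with a median of 8263. Male 7 had the highest ATP6 of all libraries, 35372, and male 1 the lowest, a 6.50-fold range that was wider than that of any complex IV mRNA, the next being 3.26-fold for COX2. CYTB (14168 to 15309, plus strand), the cytochrome b of complex III, had 10310 to 18150 in females, with a median of 15671, and 7396 to 18188 in males, with a median of 11637.

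Complex I has the largest number of mitochondrial subunits, and its mRNAs were the lowest and the most unequal. ND3 (9479 to 9825, plus strand) had 2128 to 4609 in females, with a median of 3379, and 2324 to 3143 in males, with a median of 2527. The males spanned 1.35-fold and the females 2.17-fold, and 5 of 8 females, female 2 and female 5 to female 8, lay above every male. ND4 (10180 to 11558, plus strand) had 2850 to 10462 in females, with a median of 4919, and ND5 (11763 to 13569, plus strand) had 2812 to 10312, with a median of 5393. For both the highest library was female 2. ND1 (2728 to 3683, plus strand) had 235 to 1083, with a median of 684, lowest in female 3 and highest in female 2. ND4 begins within the last bases of ND4L (9890 to 10187), and ATP6 within the end of ATP8 (7786 to 7993), so reads over those stretches belong to 2 genes and were assigned in a way not given in the sources used here.

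Per kilobase of annotated length COX3 came first in all 17 libraries, with a female median of 57327 signal per kilobase. ATP6, COX2 and COX1 followed with female medians of 18245, 17089 and 16381, and their ranges overlapped. ATP6 was above COX2 in 5 of 8 females, so these neighbours did not differ beyond their spread in females. In males COX2 lay higher, with a median of 21377 against 12133 for ATP6, and ATP6 was above COX2 in 6 of all 17 libraries. COX2 lay above COX1 in 15 of 17 libraries, and COX1 above CYTB in 15 of 17. CYTB had a female median of 13734 per kilobase and ND3 one of 9766, and CYTB was the higher in 16 of 17 libraries. Among the complex I mRNAs measured in females, ND3 lay above ND4 in 8 of 8, ND4 above ND5 in 5 of 8, and ND5 above ND1 in 8 of 8 with no overlap of their ranges. ND4 and ND5 therefore did not differ beyond their spread, with medians of 3569.9 and 2986 per kilobase, and ND1, with a median of 717, lay far below them and above ND2 in 4 of 8 females. These comparisons between genes take the deposited values as not scaled for length, since the same step held for short and long genes.

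**Figure D2:**
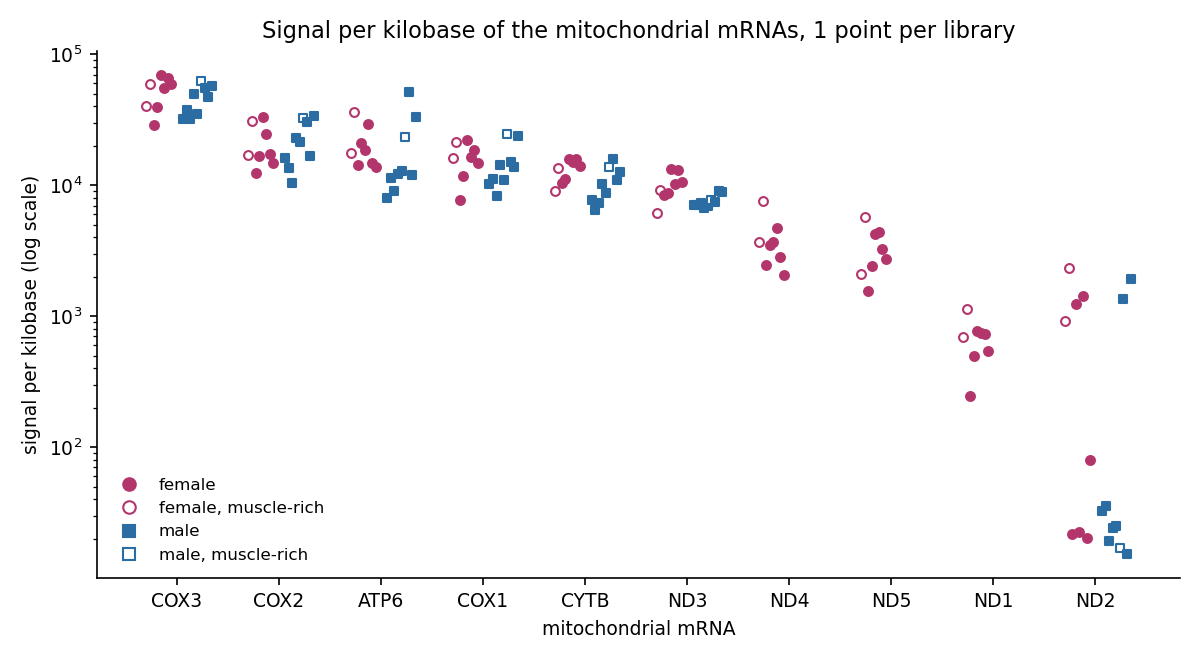
Signal per kilobase of annotated length (vertical axis, log scale) of the 10 mitochondrial mRNAs, with 1 point per library, females as circles, males as squares and muscle-rich libraries open. COX3 is highest in all 17 libraries, and ND2 falls into separate high and low libraries; ND1, ND4 and ND5 are shown in females only.

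ND2 (3890 to 4938, plus strand), a membrane subunit of complex I, did not vary as the others did. Its signal was 965 in female 1, 2424 in female 2, 1307 in female 4, 1497 in female 6, 1413 in male 7 and 1998 in male 9. In the other 11 libraries it was between 16.0 in male 8 and 83.1 in female 8. No library lay between 83.1 and 964.6, an 11.6-fold gap. Of 8846 transcripts with a signal of at least 10 in some library, 9, ND2 included, had an inner gap as wide as its 3.52 on the log2(signal + 1) scale, where at least 4 libraries lie on each side, and the median transcript had a gap of 0.307. The next mRNA of the mitochondrial set, ATP6, had a gap of 0.314. This description was chosen after the values were seen and carries no test.

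The high ND2 libraries came from both sexes, and their relation to the labels was not tested. They were 4 of 8 females and 2 of 9 males. In the males they were 2 of the 4 libraries of name series B and none of the 5 of series A. The females with high ND2 were labelled as aged 19, 19, 18 and 18, and those with low ND2 as 19, 18, 17 and 15. Muscle content did not separate them, since female 1 and female 2 were high and male 6 was low at 17.8. LRP2 ranged from 0.947 to 294.5 in the high ND2 libraries and from 7.04 to 226.8 in the low ones, and the share of all 7 mRNAs overlapped as widely. Of the 4 libraries with the fewest steps, female 1, female 2 and female 6 were high in ND2 and male 6 was low, while female 4, male 7 and male 9 were high at 3830814, 4798566 and 6886486 steps. The part of depth in the ND2 values was not tested.

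Some other members were also set against COX3 of the same library. The ATP6 to COX3 ratio was 0.385 in female 1, 0.526 in female 2, 0.460 in female 4, 0.459 in female 6, 0.816 in male 7 and 0.508 in male 9. In the 11 libraries low in ND2 it was 0.194 to 0.329 in 10, and 0.436 in female 3. Female 3 was thus the only low ND2 library whose ATP6 ratio reached those of the high ND2 libraries. In females the ND1 to COX3 ratio was 0.0212, 0.0232, 0.0153 and 0.0164 in the libraries high in ND2, and 0.0105 to 0.0136 in the other four. ND4 to COX3 was 0.161, 0.224, 0.155 and 0.149 in the former, 0.152 in female 3, and 0.0922, 0.0759 and 0.0613 in female 5, female 7 and female 8. The ratio of ND4 to the neighbouring ND4L, a further complex I mRNA, fell into clearly separate values: 2.52 to 2.79 in female 1, female 2, female 3, female 4 and female 6, and 1.27 to 1.36 in female 5, female 7 and female 8. Female 3 therefore resembled the high ND2 libraries in ATP6 and ND4 but not in ND2 or ND1.

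**Figure D3:**
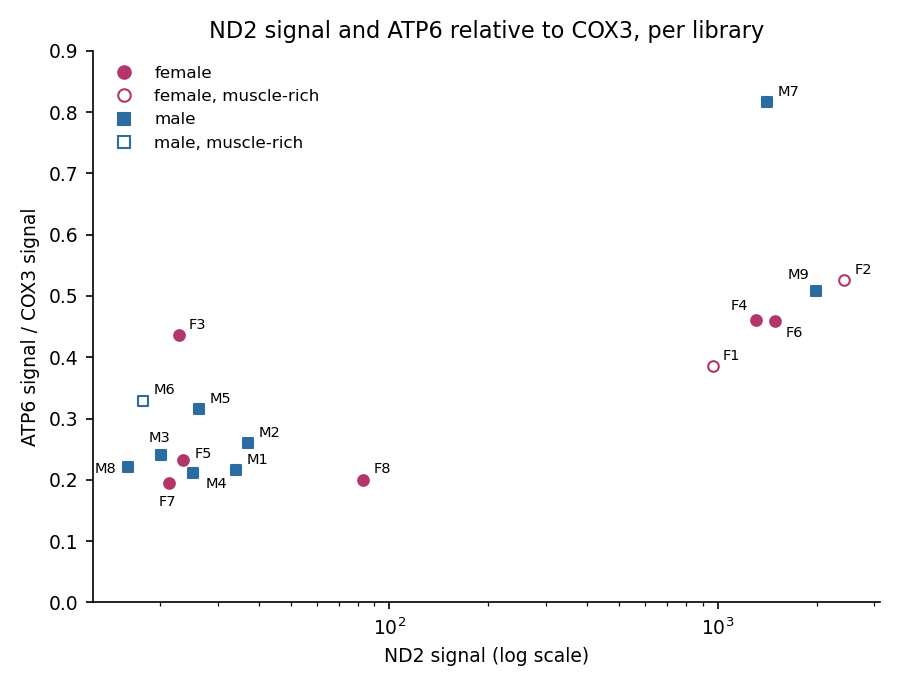
ND2 signal (horizontal axis, log scale) and the ratio of ATP6 to COX3 signal (vertical axis) in each library, labelled F for female and M for male with the library's number. The 6 libraries with ND2 at 964.6 or above have ratios of 0.385 to 0.816, and 10 of the other 11 have 0.194 to 0.329.

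Other ratios overlapped more widely between the libraries high and low in ND2. ND5 to COX3 in females was 0.122 to 0.221 in those high in ND2 and 0.106 to 0.1405 in the others, with female 2 and female 6 above all of these. COX2 to COX1 ran from 0.408 to 0.879 over the 17 libraries, COX1 to COX3 from 0.498 to 0.834, CYTB to COX3 from 0.250 to 0.526 and ND3 to COX3 from 0.0549 to 0.130. For each of these 4 ratios, too, the ranges of the libraries high and low in ND2 overlapped. Female 3 had the highest CYTB to COX3 ratio, 0.526, and the highest ND3 to COX3 ratio, 0.130. These ratios describe single libraries, and their cause was not tested.

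Spread within a sex, over the 14 libraries low in muscle genes, put the mRNAs in another order. The SD of log2(signal + 1) was 2.84 for ND2, 0.775 for ATP6, 0.555 for COX2, 0.494 for COX1, 0.414 for COX3, 0.372 for CYTB and 0.220 for ND3. The median gene of the 9421 that passed a filter on low values had an SD of 0.377. ND2 was thus more variable than 99.99% of genes and ATP6 more than 92.5%, whereas ND3 was more variable than only 9.01%. Over the same libraries, centred within sex, Pearson's r between a member and the sum of the other six was 0.904 for CYTB, 0.896 for COX1, 0.851 for COX2, 0.829 for COX3, 0.648 for ATP6, 0.633 for ND3 and 0.514 for ND2 (n = 14). All values of a library share its scaling, so these correlations are descriptive.

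The sexes were compared with limma on log2(signal + 1), adjusted over all genes tested. No member passed an adjusted p of 0.05, while 1279 of 9421 genes (13.6%) did, 35 higher and 1244 lower in females. The log2 differences, female minus male, were 1.76 for ND2 (SE 1.27), 0.36 for ND3 (SE 0.21), 0.36 for CYTB (SE 0.28), 0.31 for ATP6 (SE 0.40), 0.19 for COX3 (SE 0.34), 0.16 for COX1 (SE 0.34) and -0.05 for COX2 (SE 0.34). The lowest limma adjusted p among them was 0.258, for ND3, and 0 of 7 had an unadjusted p under 0.05, where 2771 of 9421 genes did. Of the 7, 6 were on the higher side in females, where the median of all genes tested was -0.28. Without the muscle-rich libraries 0 of 7 passed, where 38.6% of genes did, and the lowest limma adjusted p was 0.0836, for ND3 at 0.49 (SE 0.21). Direction was unstable. All 7 were higher in females when libraries were scaled to the median gene or to their nuclear signal, and 4 of 7 with age as a term. Against male series B alone 2 of 7 were higher, and against male series A alone 7 of 7. In the fit against series A, 3 (ND2 at 2.91, ATP6 at 0.90 and CYTB at 0.68) had an unadjusted p under 0.05. So did 2225 of 9421 genes. There 0 of 7 members passed, where 719 of all genes did.

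A fit that removed the mitochondrial signal from the scaling gave larger values. Each of the 14 libraries low in muscle genes was scaled to the same summed signal outside the mitochondrial sequence, and all 7 members were then higher in females, by 0.46 (COX2) to 1.09 (ND2). ND3, at 0.98 (SE 0.21, limma adjusted p = 0.00426), and CYTB, at 0.99 (SE 0.35, limma adjusted p = 0.0413), passed. That is 2 of 7, near the 30.0% of all genes called in the same fit, so the count is not a result about these mRNAs. With all 17 libraries under this scaling 0 of 7 passed, the lowest limma adjusted p being 0.426. Proximal tubule markers moved the other way beside these values: in the libraries low in muscle genes their summed signal was 257 to 3817 in females and 3710 to 8243 in males, all 10 markers being held. In that scaled fit 7 of the 10 fell, and of these SLC5A2, which encodes the glucose cotransporter SGLT2, fell by 2.65 on the log2 scale. The part of tubule content in the mRNA values was not tested.

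**Figure D4:**
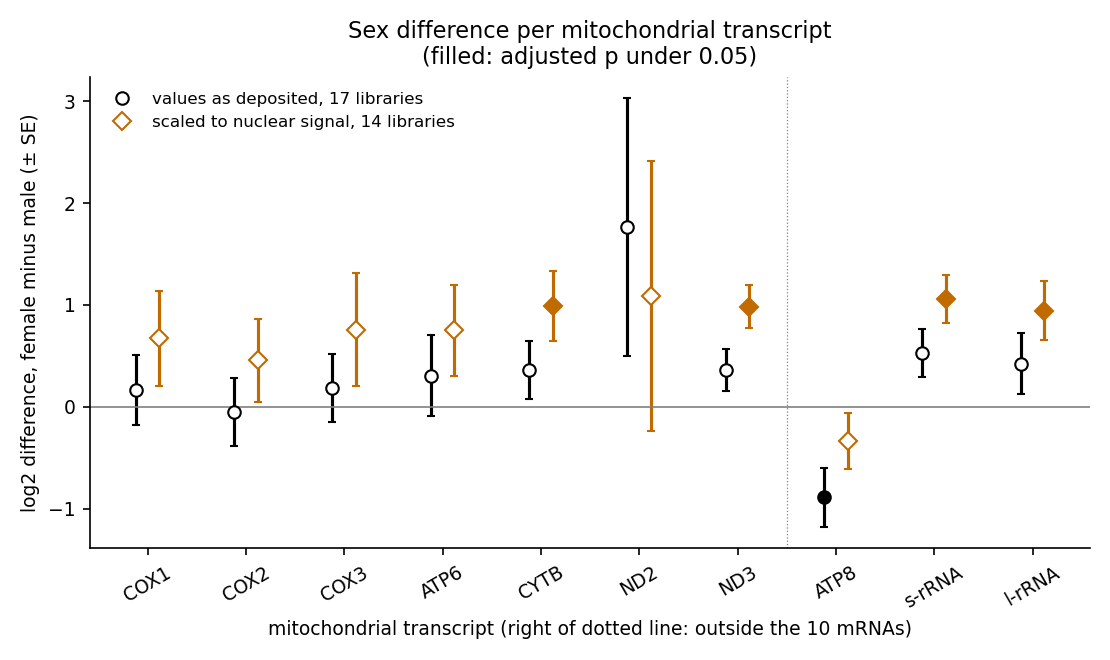
Log2 difference, female minus male, with its SE (vertical axis) for 7 mitochondrial mRNAs and, right of the dotted line, ATP8 and both rRNAs. Circles use the values as deposited in 17 libraries, diamonds the scaling to nuclear signal in 14 libraries, and filled symbols have a limma adjusted p under 0.05; 0 of 7 mRNAs are filled among the circles and 2 of 7 among the diamonds.

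Some other features of the mitochondrial sequence did differ by sex as deposited. ATP8, the small ATP synthase subunit whose reading frame overlaps ATP6, had 199 to 559 in females, with a median of 350, and 310 to 1388 in males, with a median of 566. Its log2 difference was -0.89 (SE 0.29, limma adjusted p = 0.0491), and the call was lost in 15 of 17 fits that left out 1 library, with limma adjusted p of 0.0518 to 0.0956, and under 7 of the other settings. These were median scaling (-0.49, limma adjusted p = 0.400), nuclear scaling (-0.69, 0.271) and the same without the muscle-rich libraries (-0.33, 0.382), a pseudocount of 0.1 (-0.89, 0.0541), series A (-0.52, 0.284), series B (-1.36, 0.128) and age as a term (-1.66, 0.592). Without the muscle-rich libraries alone it passed (-0.83, limma adjusted p = 0.0280). Set against COX3 of the same library, ATP8 was 0.703% to 1.20% in females and 1.22% to 3.11% in males, ranges that nearly met. This ratio is 1 of several looked at and carries no test. How many other genes differ by sex in their ratio to COX3 was not counted. Set against ATP6, ATP8 was 1.87% to 4.0% in females and 2.10% to 8.90% in males, where male 7 was the lowest. The rRNAs were higher in females without passing, s-rRNA by 0.53 (SE 0.24, limma adjusted p = 0.142) and l-rRNA by 0.43 (SE 0.30, limma adjusted p = 0.376). With nuclear scaling and without the muscle-rich libraries both passed, s-rRNA at 1.06 (limma adjusted p = 0.00493) and l-rRNA at 0.95 (limma adjusted p = 0.0238), in the fit that called 30.0% of genes.

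Of 5 tRNA features held in both tables, all on the minus strand, tRNA-Ala and tRNA-Glu were picked out after their values were seen. For the others the female and male ranges overlapped. The signal of tRNA-Asn was 2.37 to 6.55 in females and 2.82 to 17.75 in males. For tRNA-Pro it was 1.69 to 7.32 and 1.75 to 10.4, and for tRNA-Ser 0 to 0.189 and 0 to 25.4. How many of all features had separate female and male ranges was not counted. The signal of tRNA-Ala was 0.318 to 2.24 in females and 5.38 to 31.4 in males. That of tRNA-Glu was 0 to 0.237 in females, with a median of 0, and 0.618 to 5.72 in males. The female values lie near the floor. The highest female tRNA-Glu, in female 1, and the lowest tRNA-Ala, in female 6, each equalled the step of that library, taken above as 1 read. No test is given, because the male libraries alone were enough for both to pass the filter on low values. The libraries were prepared from mRNA.

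Age was tested within each sex, per unit of labelled age. In females 0% of 12872 genes were called, with 693 at an unadjusted p under 0.05, and 0 of 10 members, whose slopes ran from -0.16 (COX3) to 0.76 (ND2). In males 0% of 9421 genes were called, with 974 at an unadjusted p under 0.05, and 0 of 7 members, whose slopes ran from -0.30 (ND2) to 0.07 (COX2). Female ages spanned 15 to 19 and most male ages 6 to 8, so the range of age was narrow; the lowest limma adjusted p among the members was 0.449 in females and 0.616 in males. Without the muscle-rich libraries no gene was called either. The member slopes were then -0.20 to 0.16 for the 10 members in females and -0.23 to 0.02 for the 7 in males. That fit in males left male 5, labelled 13, as the only male labelled above 8. Positive slopes were 5 of 10 in females, 4 without the muscle-rich libraries and 1 with nuclear scaling, and 5 of 7, 1 and 2 in males, so most signs were not stable.

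The relation to tubule content was read from the slope on log2 LRP2, within sex, over the 14 libraries low in muscle genes. LRP2 ran from 7.98 to 120.9 in these females and from 133.7 to 294.5 in these males, without overlap. Of 9420 genes 7.46% had a slope that passed, and 0 of 7 members did. All 7 slopes were positive: 1.03 for ND2 (SE 0.71), 0.40 for COX1 (SE 0.17), 0.36 for COX3 (SE 0.18), 0.32 for COX2 (SE 0.17), 0.31 for ATP6 (SE 0.22), 0.26 for CYTB (SE 0.14) and 0.15 for ND3 (SE 0.09). The lowest limma adjusted p was 0.182, for COX1. For comparison, all 9 other proximal tubule markers rose with LRP2, with a median slope of 1.10, where the median of all genes was -0.05. With the muscle-rich libraries included, where LRP2 was 0.947 to 7.04, 3 of 7 member slopes were positive. In that fit 0 of 7 members passed, where 4718 of 9420 genes did.

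Within females alone, in the complete table, 6.22% of 12871 genes passed and 1 of 10 members did. That member was ND1, with a slope of 0.44 per log2 unit of LRP2 (SE 0.08, limma adjusted p = 0.0115). Its signal was 235 in female 3, 474 in female 4, 518 in female 8, 734 in female 5, 712 in female 6 and 703 in female 7, where LRP2 was 7.98, 41.2, 57.9, 63.8, 110.7 and 120.9. ND1 was thus lowest where LRP2 was lowest, with female 3 the farthest point on both, and this 6-library fit was not repeated without it. ND5 had a slope of 0.36 (SE 0.13, limma adjusted p = 0.143). The males gave 0 of 7 on their own, where 297 of 9420 genes passed. Of the 7, 4 had an unadjusted p under 0.05, as did 2331 of all genes, whose median slope was 0.33. ND2 had a slope of 5.44 (SE 1.53, limma adjusted p = 0.0742) and ATP6 one of 2.02 (SE 0.58, limma adjusted p = 0.0749). Of these males, male 7 and male 9 held both the highest LRP2, 294.5 and 293.0, and the highest ND2.

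**Figure D5:**
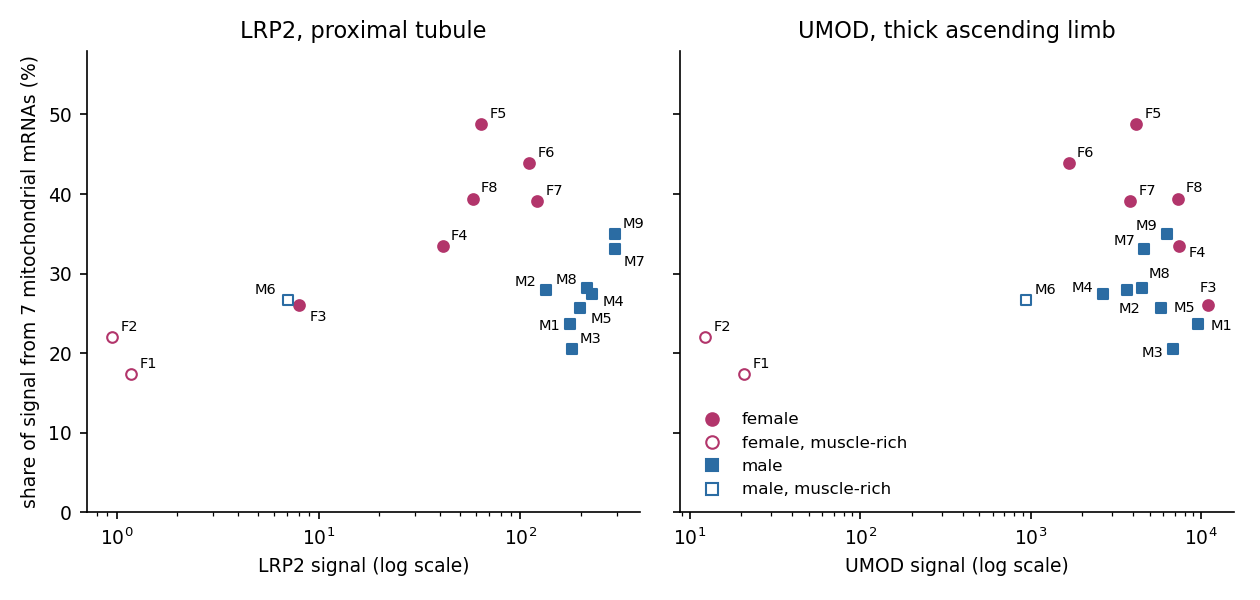
Share of signal from 7 mitochondrial mRNAs (vertical axis, %) against LRP2 signal (left) and UMOD signal (right), both on log axes, with 1 labelled point per library. Female 1 and female 2 are low on all measures, and the females low in muscle genes hold less LRP2 than every male low in muscle genes but reach shares up to 48.8%.

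UMOD gave no called member either. Over the same 14 libraries UMOD was 1669 to 11030 in the females and 2640 to 9625 in the males, which overlapped. Of 9420 genes 5.94% had a slope that passed, and 0 of 7 members did. All 7 slopes were negative, from -0.08 for ND3 (SE 0.15) to -0.60 for ND2 (SE 0.93), where the median of all genes was 0.09. The lowest limma adjusted p was 0.497, for COX2, and the slope of ND2 became positive, at 0.74, without female 6. With the muscle-rich libraries included 0 of 7 passed, where 4580 of 9420 genes did, and 2 of 7 were positive. Female 3, with the highest UMOD of 11030 among all libraries, had a share of 26.1%, and female 6, with the lowest UMOD of these females at 1669, had 43.9%.

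The mitochondrial mRNAs were also set against nuclear genes of the same enzymes. Of these, 22 were held in both tables, and the 7 mRNAs carried 25.4 to 123.6 times their summed signal in females, with a median of 72.2, and 33.0 to 73.8 times in males, with a median of 45.96. Female 1 and female 2 were lowest, at 25.4 and 28.1, and female 5 and female 6 highest, at 123.6 and 111.6. For complex IV alone the ratio was 199 to 879 in females and 243 to 627 in males. The 22 genes are few, with 3 of complex I, 2 of complex IV, 15 of the ATP synthase under current and older symbols and none of complex III passing the filter, so the ratio describes these genes only. ATP5A1, the alpha subunit of the ATP synthase, had the highest mean of its group, with 198 to 1095 in females and 323 to 744 in males (log2 difference -0.25, SE 0.32, limma adjusted p = 0.644).

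Nuclear genes that serve the mitochondrial genome were counted in the same fits. Of 10 tested genes of mitochondrial transcription and replication, 1 fell in females and 0 rose, TFB2M, a transcription factor of the mitochondrial promoters, by 0.73 on the log2 scale (SE 0.21, limma adjusted p = 0.0323). Of 14 genes of RNA processing and stability, HSD17B10, a subunit of the mitochondrial RNase P, fell by 0.83 (SE 0.24, limma adjusted p = 0.0335), with 31 to 82 in females and 39 to 133 in males. Of 8 translation factors, GFM2, which acts in mitochondrial ribosome recycling, fell by 0.76 (SE 0.18, limma adjusted p = 0.0124). Its signal was 5.72 to 10.7 in females and 10.9 to 21.7 in males. Of 7 regulators of mitochondrial biogenesis, 3 complex I, 2 complex IV and 15 ATP synthase genes none was called with all 17 libraries, in the fit that called 13.6% of genes. Without the muscle-rich libraries, where 38.6% of genes were called, 5 of 10, 9 of 14 and 5 of 8 genes of the first 3 lists fell, as did 2 of 7 regulators (GABPA and PPARA), COX5A of complex IV and 6 of 15 ATP synthase genes, and none rose. With nuclear scaling in addition, 4 of 10, 1 of 14 and 2 of 8 of the first 3 lists fell, while FASTK of RNA processing, NDUFS8 of complex I and ATP5D and ATP5G2 of the ATP synthase rose; GABPA and ATP5F1 fell, in the fit that called 30.0% of genes. Calls on these lists thus changed with the libraries and the scaling. The medians of the first 3 lists were -0.44, -0.30 and -0.44, where all genes had -0.28, with all 17 libraries. On LRP2 none of these genes was called over the 14 libraries, in the fit that called 7.46% of genes. On UMOD 2 of 10 genes of transcription and replication rose, TFB1M by 0.47 and MGME1 by 0.65 per log2 unit. Of the 8 translation factors 1 rose, MTRF1 by 0.46, and no gene of the other lists was called. The UMOD fit called 5.94% of all genes, so these few calls are not a result about the lists.

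The nuclear genes most like the summed 7 mRNAs were taken by Pearson's r over the 14 libraries, centred within sex, among 4701 genes at or above the median level. They were TNFSF15 (r = 0.911), EPB41L3 (0.892), CTTNBP2 (0.872), PROS1 (0.869) and RGL1 (0.868). The 5 most opposed were CCDC85B (r = -0.850), MAGED1 (-0.817), KCTD15 (-0.815), NRBP2 (-0.813) and C19H19orf66 (-0.795). Across all these genes r ran from -0.503 at the 5th to 0.675 at the 95th percentile, with a median of 0.0786. TNFSF15, a cytokine of the tumor necrosis factor family, had signals of 0.316 to 28.4 in the females and 1.17 to 111.7 in the males. No nuclear respiratory chain gene was among the 10. Few could be, since those tested were 3 of complex I, 0 of complex III, 2 of complex IV, 15 of the ATP synthase and 1 of complex II. Their absence therefore does not show how such genes vary with the mRNAs.

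In the authors' deposited table each transcript carries a module colour from a co-expression network, built per sex. In the females 6 of 10 members, COX1, COX2, ATP6, ND1, ND2 and ND4, were in the blue module, which holds 41.7% of the transcripts of that table. COX3 and ND3 were in the lightyellow module (3.52%), CYTB in the pink (3.99%) and ND5 in the green (4.78%), per the authors' deposited table. In the males 4 of the 7 held, COX1, COX2, COX3 and CYTB, were in the turquoise module of the authors' deposited table. ATP6 was in the magenta and ND2 in the brown. ND3 carried the colour grey, which is not read here as membership of a module. COX1 and COX2 shared a module in both sexes, whereas ATP6 and ND2 shared one with them in females but not in males. Colours of the 2 networks are not the same modules. The sizes of the male modules were not counted here. Neither the 4 of 7 nor the sharing of modules in males can therefore be weighed against module size.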

How the data were processed

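Stranded mRNA libraries of 17 kidney cortex biopsies were measured. For each sex there is a table of signal per transcript, which the authors deposited, as judged from the values, after scaling libraries and adding an offset of 1. Partek is named in the submitters' processing notes. The sources used here do not give the aligner, the scaling, the genome build, the use of strand or how reads that also match nuclear copies were handled. The male table was held in part, 17119 complete rows. Coordinates are those of the tables, and length is stop minus start, since adjoining features share a boundary.

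The offset was subtracted and transcripts were summed per gene. Of 9826 genes in both tables, 2263 lacked some transcripts in the male part. A gene was tested if 8 or more libraries (4 or more in the table of females) had a signal of 1 or higher. Linear models on log2(signal + 1) were fitted in limma (version 3.58.1, R 4.3.3) with the variance trended on the mean, p-values were adjusted over all genes by Benjamini-Hochberg, and 0.05 was the threshold. Log2 differences on this scale understate the change of low genes. The code was tested on simulated data. Libraries whose mean log2 level of the 3 skeletal muscle markers held (of 15) was at least 6 were called muscle-rich. The step of a library is the lowest value that 3 or more single-transcript genes share. Of values under 3, 48.4% to 65.3% were whole multiples of it within 0.02 of a step, 54.6% to 70.7% in the shorter and 40.1% to 60.0% in the longer genes by genomic span, so values were taken as not scaled for length. Because many values were not whole, no count test was run.

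Alternatives were other scalings, filters, a pseudocount of 0.1, age as a term, each male name series and leaving out libraries. Members and lists were chosen with earlier results of these data known. Named genes were the members, LRP2, UMOD, ACTA1, the 5 genes most and least like the members, and at most 4 called genes per list. Depth is known only through the step, so precision rests on the spread between animals.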

Additional observations from a re-analysis of the deposited data

Results flagged for a closer look

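Within each sex, 55 sets of values were searched for a library far from the others by its gap relative to the range, and 8 stood apart. The cut-off flags about 1 in 20 sets of independent, normally distributed values. Several of these ratios share COX3 and some signals lie near 0, so the 8 cannot be weighed against that rate. Male 7 had a tRNA-Ser signal of 25.43, where the next male had 0.2601; this feature lies on the minus strand and overlaps the 3′ end of COX1. In the females, female 5 had the highest tRNA-Ser signal, 0.1892, where the next, female 8, had 0.0829. The steps of these libraries, each taken as 1 read, were 0.0946 and 0.0829, so both values lie near the floor. Male 7 also had the highest ratio of ATP6 to COX3, 0.8157, the next male being male 9 at 0.508. Male 6, rich in muscle genes, had an l-rRNA signal of 10210 against 5744 in the next male, and male 5 a tRNA-Ala signal of 31.41 against 13.69. In the females, female 2, also rich in muscle genes, had an ND4 signal of 10460 against 6451 in the next. Female 3 had the highest ratio of CYTB to COX3, 0.5258, and of ND3 to COX3, 0.1303, where the next female had 0.4124 and 0.09728.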

How the results depend on the processing

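No member was called by sex, age, LRP2 or UMOD in any fit that left out 1 library, and the 2 members called by sex and 1 on LRP2 under other alternatives are given above. By sex, 1279 genes were called as deposited. The count was 3634 without the muscle-rich libraries, 388 with median scaling (median of all genes 0.04 in place of -0.28; 142 higher and 246 lower), 71 with nuclear scaling (6 higher and 65 lower), 2831 with nuclear scaling and without the muscle-rich libraries (1520 higher and 1311 lower), 770 with a filter minimum of 10, 1 with age as a term, 719 against series A and 6 against series B. Leaving out 1 library gave 661 (male 9) to 2340 (male 6), with 839 without female 8, 832 without male 5 and 682 without male 7. The count for LRP2 was 703, 4718 with all 17 libraries and 297 in males alone, and for UMOD 560, 4580 with all 17, 203 in females alone and 0 in males alone, where 652 had an unadjusted p under 0.05. Leaving out 1 library gave 162 (female 3) to 862 for LRP2 and 49 (female 3) to 1039 (male 4) for UMOD, with 275 without female 4, 176 without female 6 and 315 without male 1. For age it gave 0 to 1 in females (1 without female 8) and 0 to 3602 in males (3602 without male 5, the oldest). Without male 5, labelled 13, the only male labelled above 8 was male 6, labelled 12 and rich in muscle genes. Age and muscle content therefore cannot be told apart in that fit, and its count is not a result about age. The cause of these changes was not tested.

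Member values changed sign as follows. By sex COX1 became -0.0614 with age as a term and -0.28 against series B; COX2 became 0.35 with median scaling, 0.15 with nuclear scaling, 0.46 with nuclear scaling and without the muscle-rich libraries and 0.29 against series A; COX3 became -0.13, ATP6 -0.44 and CYTB -0.039 against series B, and ATP6 -0.19 and l-rRNA -0.00899 with age as a term. With all 17 libraries the LRP2 slopes became -0.0388 for COX1, -0.0304 for COX2, -0.0492 for ATP6 and -0.12 for ND2, and the UMOD slopes 0.0082 for CYTB and 0.0449 for ND3. In males alone the UMOD slopes were 0.47 for ND2 and 0.0434 for ND3. Leaving out 1 library moved COX2 between -0.173 and 0.0423 by sex (positive without female 3, female 8, male 6, male 7 or male 9), and ND2 between -0.987 and 0.742 (without female 6) on UMOD. Of 196 alternative values (7 members by sex, LRP2 and UMOD, ATP8 and both rRNAs by sex, and the 4 age slopes named above), the rest kept their sign. Age slopes of other members near 0 changed sign, as counted above. No paired analysis was made, because each animal gave 1 library and the sexes are separate animals. ND2 in its low libraries came to 61 to 1003 steps.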
